A study of Mus musculus with 13 samples.

Results

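Integrin and laminin subunits form a module of receptor and matrix genes, and 30 of them were measured here in the embryonic lower urinary tract. They are the genes on the array whose single platform symbol is Itga, Itgb, Lama, Lamb or Lamc followed by a number, or by a number and a letter. They comprise 11 integrin alpha, 9 integrin beta, 5 laminin alpha, 3 laminin beta and 2 laminin gamma genes, out of 18193 genes with a single-symbol probe set. Together they had 65 probe sets, the groups of short oligonucleotides that report a transcript on these Affymetrix MOE430 arrays, and each gene is reported by its probe set of highest mean. The choice used symbols and mean level, not a difference between groups.

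The 13 arrays held total RNA from microdissected bladder (3 arrays, replicates 2, 6 and 8), urogenital sinus (4 arrays, replicates 1, 2, 6 and 7) and urethra (3 arrays, replicates 1, 2 and 6), and from a newborn reference (3 arrays). The region samples came from E14 embryos of FVB/N females mated to SMGA/EGFP transgenic males, in which the smooth muscle gamma-actin promoter drives a green fluorescent protein; bladder and urethra were dissected as fluorescent tissue and the sinus as the dark tissue between them, without pooling. Theiler stage 21 holds the replicates numbered 1 and 2, and stage 22 those numbered 6, 7 and 8. The reference was wild-type FVB/N RNA pooled from whole animals, 4 males and 4 females, at postnatal day 1 (Theiler stage 27), so it differs from the regions in age and in tissue at once. Whether an embryo gave more than 1 region is not stated in the labels, and the p-values therefore reflect only how far these samples spread.

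Integrins are cell surface receptors built from an alpha and a beta chain, and they tie the actin or keratin cytoskeleton to the extracellular matrix. Laminins are trimers of an alpha, a beta and a gamma chain that assemble into the basement membrane, the sheet that lies under epithelia and around smooth muscle cells and vessels. In the bladder wall, epithelial integrins and laminins anchor the urothelium, while muscle integrins carry the load of contraction. The regions were compared to see which of these chains differ between bladder, sinus and urethra, and the reference shows where each chain lies relative to a whole newborn.

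Levels are given as log2 of the deposited intensity, and differences as log2 differences with their standard error (SE). A difference was called when limma's p, adjusted by Benjamini-Hochberg over all 15019 genes tested, was under 0.05. Levels of different genes come from different probes and are not compared with one another. The table gave every array the same trimmed mean, but the median intensity was 142 to 238 on the bladder arrays, 259 to 389 in the sinus, 221 to 378 in the urethra and 278 to 455 in the reference. The embryonic globin Hbb-bh1 was high on sinus replicate 1 (15.04) and urethra replicate 1 (14.51). Sample titles are written in 3 styles, and the 3 urethra arrays share a style with no other region, so any batch that the styles mark can be separated from urethra only through the reference arrays. The mean of 7 contractile smooth muscle genes was 11.07 to 11.76 in the bladder, 8.32 to 9.85 in the sinus and 10.65 to 11.57 in the urethra. Of the 7, 5 were higher in bladder than sinus and 0 were called between urethra and sinus, and Des, the muscle intermediate filament desmin, lay the other way without being called (bladder against sinus -2.30, SE 0.58, adjusted p = 0.074), at 5.65 to 7.20 in the bladder, 7.83 to 9.79 in the sinus and 7.48 to 9.08 in the urethra. The mean of 9 epithelial genes was 10.68 to 11.59 in the bladder, 12.04 to 12.76 in the sinus and 12.47 to 13.46 in the urethra. By this mean all bladder arrays lay under all others, but not by every gene. Epcam, Krt5 and Krt15 were lower on every bladder array than on every sinus array. Krt8 (13.71 to 15.10 in the bladder, 13.76 to 15.41 in the sinus), Krt18, Cdh1, Cldn4, Cldn7 and Trp63 overlapped between bladder and sinus. In such bulk samples fewer cells of a type and less RNA per cell cannot be told apart.

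Most of the subunits were detected in all 3 regions. Of the 30 genes, 17 lay above 7.39 (the 40th percentile of the table, used as the filter level) on all 13 arrays. These were Itga1, Itga2b, Itga3, Itga4, Itga6, Itga8, Itga9, Itga10, Itgb1, Itgb5, Lama2, Lama3, Lama4, Lama5, Lamb1, Lamb2 and Lamc1. On no bladder array did Itga7, Itgb4, Itgb8 or Lamb3 exceed that level. Itga7, the alpha chain of the muscle laminin receptor, stood at the floor of 5.65 on 9 of 10 region arrays and at 6.77 on urethra replicate 1. On the reference arrays Itga7 was at 8.59, 9.16 and 5.86, above the filter level on fewer than 3 arrays, and it was the single member left untested. The mean of 8 skeletal muscle genes was 13.50 to 13.71 on the reference arrays and 6.82 to 10.42 on the region arrays.

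**Figure D1:**
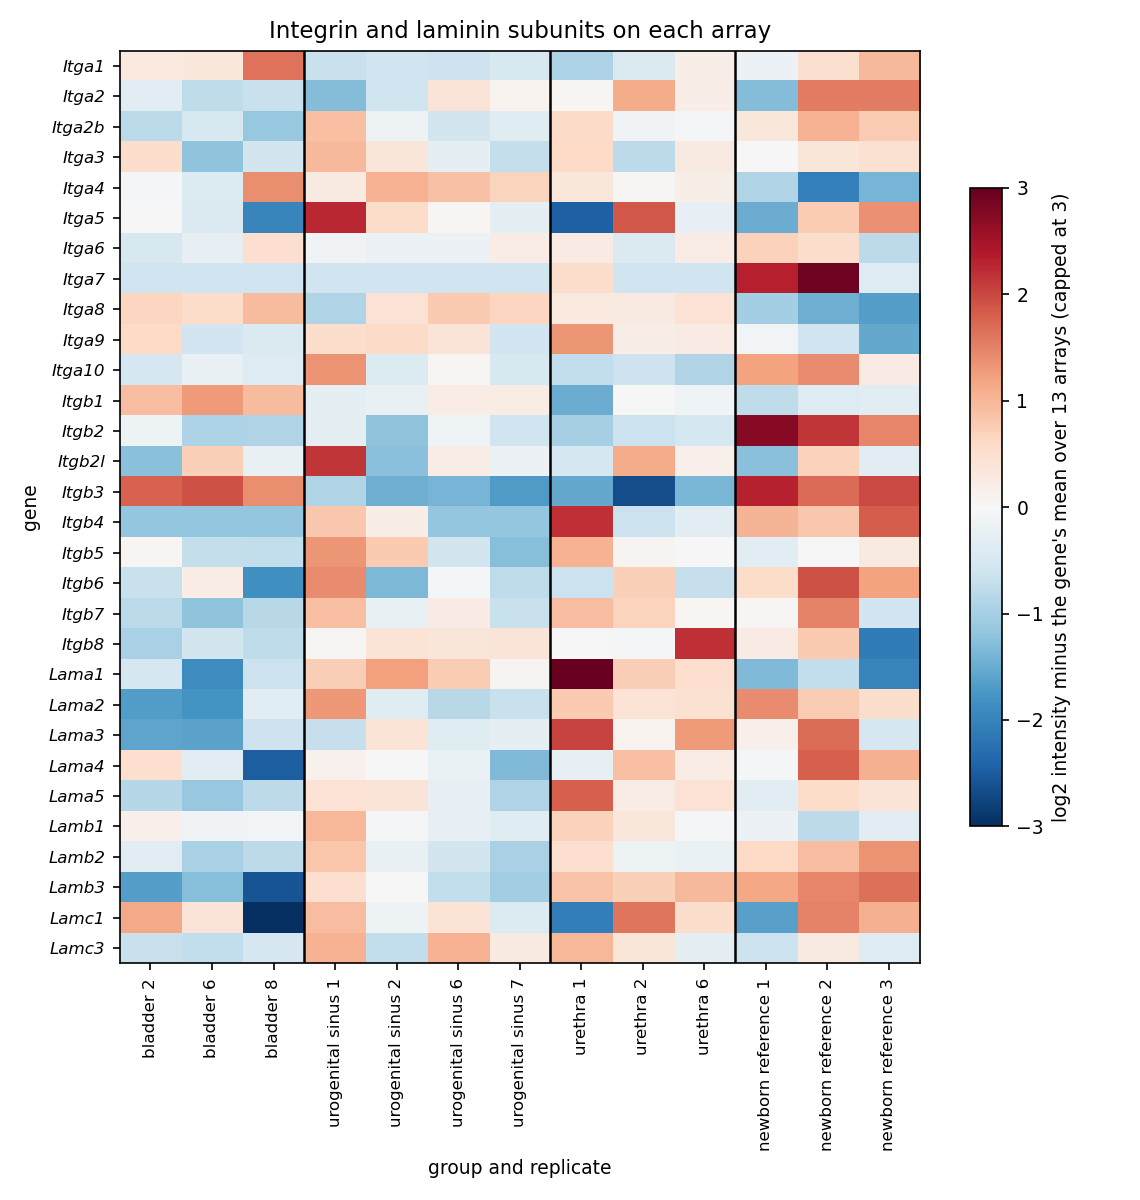
Log2 intensity of each integrin and laminin subunit (rows) on each of the 13 arrays (columns, by group and replicate), shown as the difference from the gene's mean over the 13 arrays, with colours capped at 3 in either direction. Itgb3 is high in the bladder and reference columns and low in the sinus and urethra columns, while Lamb3 and Itgb4 are low in the bladder columns.

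Itgb3, an integrin beta chain of the receptors for fibrinogen and vitronectin, showed the clearest regional difference. It was at 11.02, 11.17 and 10.65 on bladder replicates 2, 6 and 8. In the sinus it was at 8.35, 7.79, 7.86 and 7.55 on replicates 1, 2, 6 and 7, and in the urethra at 7.72, 6.59 and 7.89 on replicates 1, 2 and 6. Every bladder array lay above every sinus and urethra array, with no overlap. The group means were 10.95 ± 0.27 (SD, n = 3) in the bladder, 7.89 ± 0.34 (n = 4) in the sinus and 7.4 ± 0.71 (n = 3) in the urethra. Itgb3 was 8.33-fold higher in the bladder than in the sinus, or 3.06 on the log2 scale (SE 0.39, adjusted p = 0.0063, 95% interval 2.20 to 3.92). Against the urethra it was 11.7-fold higher, by 3.54 on the log2 scale (SE 0.41, adjusted p = 0.00347, interval 2.62 to 4.47). Urethra and sinus differed by -0.49 (SE 0.39, adjusted p = 0.70, interval -1.35 to 0.38), which was not called. The mean of the smooth muscle genes was high in both fluorescent regions, while Itgb3 was high in the bladder alone of the 3 regions. Between bladder and urethra 0 of the 7 smooth muscle genes were called, with a list median of 0. Tagln, which had the smallest p among them, separated the bladder from both regions. It was at 11.16 to 12.30 in the bladder, 7.09 to 8.95 in the sinus and 8.50 to 10.55 in the urethra. The part of smooth muscle in the Itgb3 difference was not tested.

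The bladder against sinus difference in Itgb3 was called under all 26 other settings and omissions tried, at 2.95 to 3.65. It was 3.09 in the title style with 2 bladder and 3 sinus arrays, and 3.10 in the style with 1 array of each. The bladder against urethra difference was called under 25 of 26, the exception being the fit with title style as a block (3.45, adjusted p = 0.0701). The other Itgb3 probe set lay between 5.65 and 6.92 on all 13 arrays, under the filter level, and differed by 0.12 between bladder and sinus, so the finding rests on 1 probe set.

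**Figure D2:**
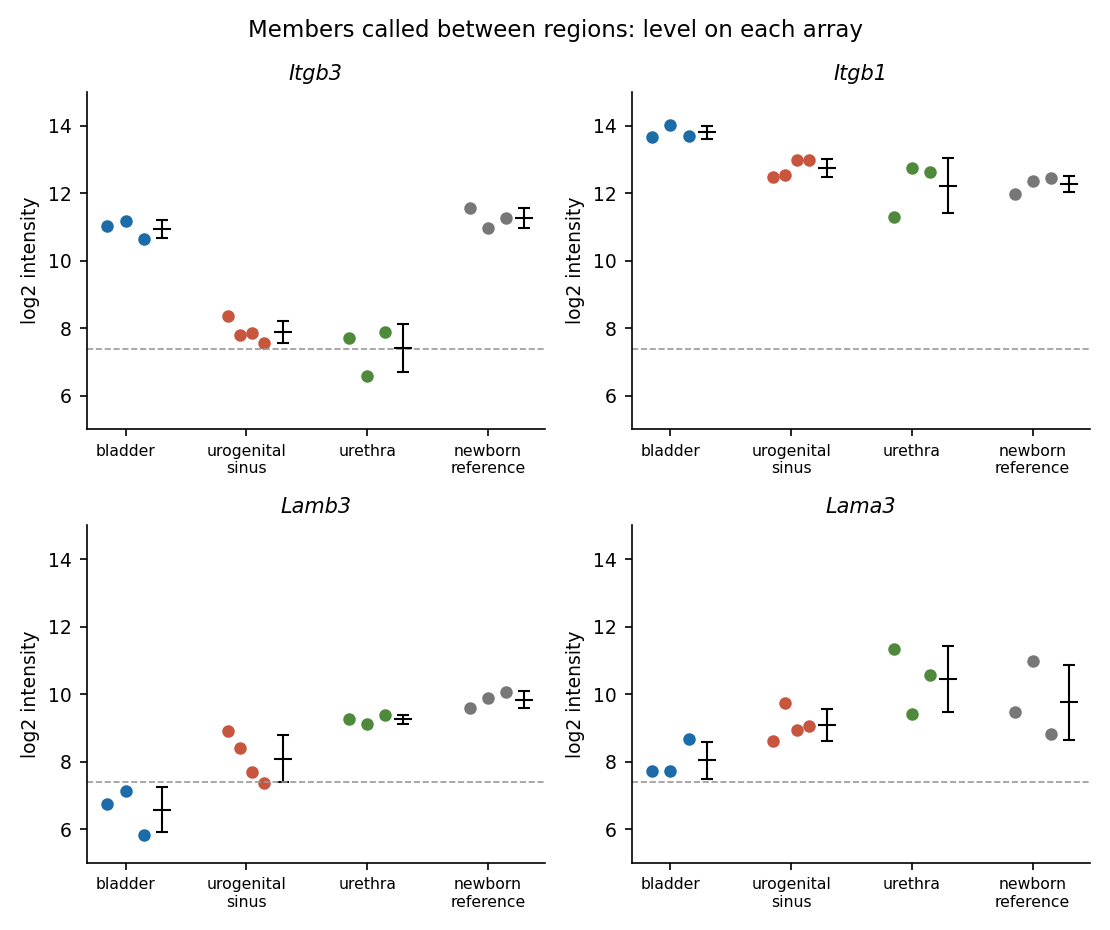
Log2 intensity of Itgb3, Itgb1, Lamb3 and Lama3, the 4 subunits called between regions, on each array; points are arrays, bars are the mean and SD of each group, and the dashed line is the filter level of 7.39. Itgb3 and Itgb1 are highest in the bladder among the regions, and the bladder arrays of Lamb3 all lie under the dashed line.

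The alpha chains that pair with Itgb3 are Itgav, in many tissues, and Itga2b, in platelets and their precursors. Itgav, whose letter name places it outside the 30 genes, was at 14.82 to 14.87 in the bladder, 14.50 to 15.43 in the sinus and 13.92 to 15.10 in the urethra. Its ranges overlapped, and the bladder against sinus difference was 0.06 (SE 0.31, adjusted p = 0.941). Itga2b was at 8.67, 9.01 and 8.35 in the bladder, at 10.38, 9.33, 8.94 and 9.13 in the sinus and at 10.07, 9.39 and 9.43 in the urethra, and it was called in none of the 3 region comparisons. Its bladder against sinus difference was -0.77 (SE 0.40, adjusted p = 0.355), opposite in sign to that of Itgb3. Of 6 genes listed as markers of megakaryocytes and platelets, 5 were named on the array. Their mean was 7.48 to 8.34 in the bladder, 7.96 to 9.34 in the sinus and 7.98 to 8.97 in the urethra, against 9.85 to 10.34 in the reference. Gp9, a platelet receptor chain, was at or under the filter level on all 10 region arrays, and 0 of the 4 tested markers were called between regions. The bladder range of this mean did not rise above that of the sinus or the urethra. The part of platelets or their precursors in the Itgb3 difference was not tested.

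**Figure D3:**
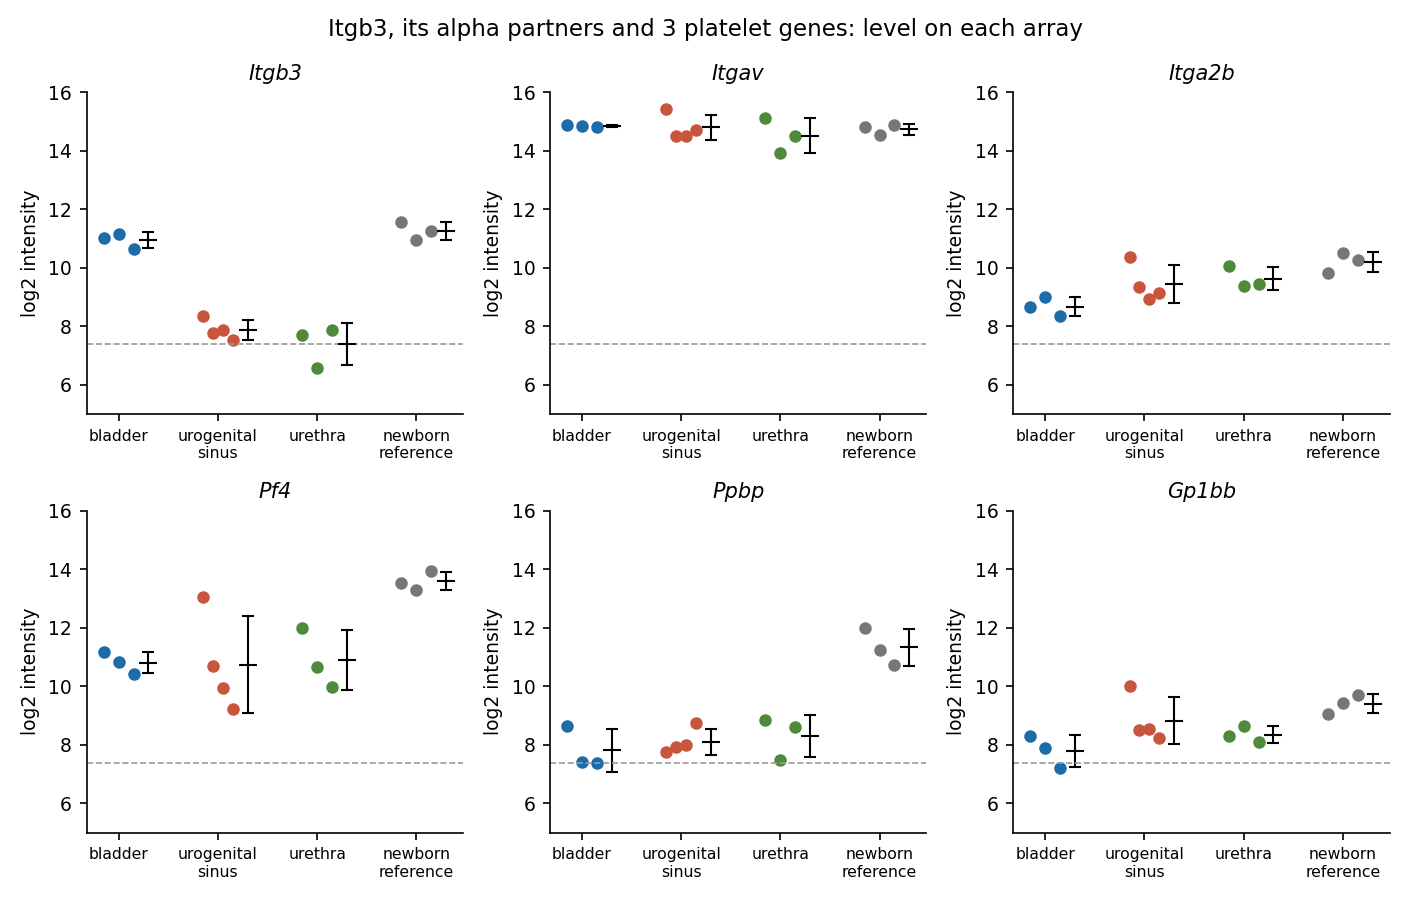
Log2 intensity on each array of Itgb3, of the alpha chains Itgav and Itga2b that pair with it, and of the platelet genes Pf4, Ppbp and Gp1bb; points are arrays, bars are the mean and SD of each group, and the dashed line is the filter level of 7.39. Itgb3 separates the bladder from sinus and urethra, while the region ranges of Itgav and of the platelet genes overlap.

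Markers of other cell types that could carry Itgb3 were read beside it. The mean of 7 endothelial genes was 10.07 to 10.29 in the bladder, 9.54 to 10.25 in the sinus and 9.81 to 10.26 in the urethra, with 1 of 7 called, Kdr, the main receptor for vascular endothelial growth factor, higher in bladder than urethra by 2.04 (SE 0.49, adjusted p = 0.0488). The list median of that comparison was 0.05, its members differed in sign, and 4.33% of all genes were called in it. Tek, the angiopoietin receptor, separated the regions as Itgb3 did without being called, at 11.46 to 12.78 in the bladder, 9.07 to 11.03 in the sinus and 9.13 to 10.47 in the urethra (bladder against sinus 2.10, SE 0.56, adjusted p = 0.0868; bladder against urethra 2.36, SE 0.59, adjusted p = 0.0561). Esam, a junction protein of endothelium, was at 10.69 to 10.99 in the bladder, under all urethra arrays (11.84 to 12.33). The mean of 8 leukocyte and macrophage genes was 8.55 to 8.97 in the bladder, 8.48 to 9.35 in the sinus and 8.95 to 9.46 in the urethra. Among 4 markers of mesothelium, the outer lining of the organ, the mean was 9.08 to 9.34 in the bladder, 8.03 to 9.16 in the sinus and 6.09 to 8.40 in the urethra. Upk3b, a mesothelial and urothelial membrane protein, was higher in bladder than urethra by 4.32 (SE 0.84, adjusted p = 0.025). The part of endothelium or mesothelium in the Itgb3 difference was not tested.

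Itgb1, the beta chain shared by most integrins that bind laminin, collagen and fibronectin, was higher in the bladder than in the urethra. It was at 13.68, 14.03 and 13.70 on bladder replicates 2, 6 and 8, at 12.49, 12.53, 12.98 and 12.97 on sinus replicates 1, 2, 6 and 7, and at 11.28, 12.76 and 12.62 on urethra replicates 1, 2 and 6. All bladder arrays lay above all sinus and urethra arrays, and urethra replicate 1 was the lowest. The bladder against urethra difference was 1.59 (SE 0.37, adjusted p = 0.0435, interval 0.77 to 2.41), or 3.01-fold. Its other 3 probe sets past the filter gave 2.02, 1.69 and 1.17 for the same difference. Against the sinus the difference was 1.06 (SE 0.34, adjusted p = 0.148), which was not called. The bladder against urethra call lies near the threshold. It was lost when any single bladder or urethra array, or sinus replicate 2, 6 or 7, was left out (1.12 to 1.86, adjusted p 0.0527 to 0.161), and it was lost in 17 of 26 settings in all.

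To show the start region of a subunit that was higher in the bladder beside one that was lower, the 250 bases before a transcription start of Itgb1 (chr8:128685404-128685653, plus strand) and Lamb3 (chr1:193301744-193301993, plus strand) are printed from the RefSeq promoter table of mouse build GRCm38.p6. Lama2 (chr10:27616943-27617192, minus strand) is shown for its CArG box, the element bound by serum response factor in smooth muscle genes, which is in capitals and lies 39 bases before the start. All are written 5′ to 3′ along the gene's own strand. The table holds a further Lamb3 start, whose window (chr1:193301993-193302242) follows the printed one and has an E-box 6 bases before that start, while the printed window has none.
Itgb1: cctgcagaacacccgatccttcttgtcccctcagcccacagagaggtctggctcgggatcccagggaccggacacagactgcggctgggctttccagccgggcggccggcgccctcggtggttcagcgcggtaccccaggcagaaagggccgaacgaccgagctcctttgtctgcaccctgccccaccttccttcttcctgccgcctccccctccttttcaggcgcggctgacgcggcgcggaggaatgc
Lamb3: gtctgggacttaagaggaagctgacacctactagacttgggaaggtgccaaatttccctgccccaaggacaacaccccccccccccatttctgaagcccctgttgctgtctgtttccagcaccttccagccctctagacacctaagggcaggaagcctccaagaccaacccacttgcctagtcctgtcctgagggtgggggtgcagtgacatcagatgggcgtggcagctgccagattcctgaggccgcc
Lama2: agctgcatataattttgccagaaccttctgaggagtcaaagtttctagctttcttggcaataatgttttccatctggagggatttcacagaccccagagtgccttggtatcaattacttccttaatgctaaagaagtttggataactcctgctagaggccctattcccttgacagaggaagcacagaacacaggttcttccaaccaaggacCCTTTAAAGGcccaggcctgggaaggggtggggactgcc
Of the 30 members, 20 were matched in that table, with 23 start sites. A CArG box on either strand was found in 2 of the 23 windows, Itgb6 and Lama2, against 1.47% of all 32851 windows of the same length. The E-box CAGGTG, which epithelial repressors of the Snail and Zeb families bind, was found in 7 of 23 windows, against 17.2% of all. The AP-1 motif TGANTCA was found in 0 of 23 (6.75% of all), and the GATA motif AGATAA in 0 of 23 (9.99% of all). Both strands were searched for each motif, none of the motifs contains another, and a match is a description of these windows.

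Lamb3 and Lama3 encode chains of the laminin that epithelial cells lay down under hemidesmosomes, and both were lower in the bladder than in the urethra. Lamb3 was at 6.75, 7.14 and 5.83 in the bladder, at 8.92, 8.40, 7.68 and 7.36 in the sinus and at 9.27, 9.12 and 9.39 in the urethra. Every urethra array of Lamb3 lay above every sinus and bladder array. All bladder values of Lamb3 were under the filter level, as was sinus replicate 7, so the level there is only bounded and the order of those arrays is not read. Lamb3 was at least 3.65-fold lower in the bladder than in the urethra, with a fitted log2 difference of -2.69 (SE 0.48, adjusted p = 0.0181, interval -3.75 to -1.62). Bladder against sinus gave -1.52 for Lamb3 (SE 0.45, adjusted p = 0.116), and urethra against sinus 1.17 (SE 0.45, adjusted p = 0.413), neither of them called.

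Lama3 was at 7.72, 7.71 and 8.68 in the bladder, at 8.62, 9.73, 8.95 and 9.05 in the sinus and at 11.35, 9.41 and 10.58 in the urethra. Bladder and urethra did not overlap, while bladder replicate 8 reached into the sinus range. The bladder against urethra difference in Lama3 was -2.41 (SE 0.53, adjusted p = 0.0366, interval -3.60 to -1.23), or 5.33-fold. Against the sinus the bladder differed by -1.05 (SE 0.50, adjusted p = 0.312) and the urethra by 1.36 (SE 0.50, adjusted p = 0.392), and neither was called. The other Lama3 probe set was under the filter and gave -0.39 between bladder and urethra.

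The calls of Lamb3 and Lama3 depended on single arrays. That of Lamb3 was lost without bladder replicate 2, without replicate 8, or when any 1 urethra array was left out (-2.77 to -2.32, adjusted p 0.0516 to 0.0645). That of Lama3 was lost when any 1 bladder array, sinus replicate 6, or urethra replicate 1 or 6 was left out (-2.73 to -1.96, adjusted p 0.0626 to 0.144). With title style as a block, Lamb3 gave -2.47 (adjusted p = 0.228) and Lama3 -3.69 (adjusted p = 0.136). Of the 9 epithelial markers, 2 were lower in bladder than urethra, 0 higher and 7 not called, with a list median of -1.01 against -0.25 for all genes tested. Of all genes, 2.62% were called lower and 1.71% higher. The called markers were basal keratins: Krt5, a keratin of basal cells, was lower in bladder than urethra by -5.06 on the log2 scale (SE 0.49, adjusted p = 0.00174), and Krt15, another basal keratin, by -4.43 (SE 0.51, adjusted p = 0.00337). How far the epithelial content of the samples accounts for the laminin difference was not tested.

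Itgb4, the integrin beta chain of the hemidesmosome, which binds that laminin, stood at the floor of 5.65 on all 3 bladder arrays. It was at 7.62, 7.01, 5.65 and 5.65 on sinus replicates 1, 2, 6 and 7 and at 9.0, 6.17 and 6.49 on the urethra arrays. It exceeded the filter level on a single sinus and a single urethra array, both numbered 1, and was not called (bladder against urethra -1.57, SE 0.75, adjusted p = 0.228). Its partner Itga6, the alpha chain of laminin receptors in basal epithelium, was at 12.62 to 13.59 in the bladder, 12.91 to 13.32 in the sinus and 12.66 to 13.33 in the urethra. Itga6 was also one of the few subunits whose interval lay within 1 log2 unit of 0 in all 3 region comparisons, along with Itgb2, which exceeded the filter level on 1 of 3 bladder arrays. The other Itga6 probe set past the filter gave -1.0 in bladder against sinus and -0.67 in bladder against urethra. Of 4 hemidesmosome proteins outside the integrins and laminins, 0 were called in any region comparison. The smallest p among them belonged to Dst, a plakin linker, between bladder and sinus (-0.91, SE 0.49, adjusted p = 0.372), and to Col17a1, a transmembrane collagen, between urethra and sinus (1.14, SE 0.62, adjusted p = 0.566) and between bladder and urethra (-1.41, SE 0.66, adjusted p = 0.223).

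The other laminin alpha chains had bladder against urethra differences of the same sign and were not called. Lama1, a chain of early epithelial basement membranes, was at 8.45, 7.06 and 8.31 in the bladder, 9.69, 10.17, 9.72 and 9.04 in the sinus and 11.95, 9.69 and 9.46 in the urethra, and bladder against urethra gave -2.43 (SE 0.67, adjusted p = 0.0712). Lama5, the alpha chain of most mature epithelial basement membranes, was at 8.55, 8.27 and 8.63 in the bladder, 9.85, 9.80, 9.17 and 8.51 in the sinus and 11.19, 9.62 and 9.84 in the urethra (-1.73, SE 0.50, adjusted p = 0.0819). Every bladder array of Lama1 and Lama5 lay under every urethra array. Lama2, the chain of muscle and nerve sheaths, was at 9.66 to 11.14 in the bladder, 10.62 to 12.74 in the sinus and 11.85 to 12.23 in the urethra (-1.81, SE 0.57, adjusted p = 0.103). Lama4, the chain of vessels and smooth muscle, was at 10.69 to 13.66, 11.85 to 13.30 and 12.91 to 14.07, and its probe sets disagreed in sign between bladder and each other region.

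Of the common beta and gamma chains, Lamb1 stood at 14.52 to 14.78 in the bladder, 14.27 to 15.63 in the sinus and 14.58 to 15.32 in the urethra. Lamb2, a chain of muscle and vessel basement membranes, was at 8.40 to 9.03, 8.39 to 10.20 and 9.17 to 9.88. Lamc1, the gamma chain of nearly all laminins, had the widest spread of any member in the bladder (SD 2.37), because bladder replicate 8 was at 8.38 against 12.81 and 12.07 on the others. The other Lamc1 probe set did not show this drop, with bladder replicate 8 at 10.75 against 9.99 and 10 on the others. The reported Lamc1 probe set was also lowest in its group on urethra replicate 1 (9.61) and reference replicate 1 (10.05). The other probe set was at 11.41 and 10.39 on those arrays, the highest in both groups. Lamc3 was at 7.18 to 7.41, 7.17 to 8.96 and 7.61 to 8.92. None of these 4 was called between regions.

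As a family, all 10 laminin differences lay under 0 in bladder against sinus, with a median of -0.95, and all 10 in bladder against urethra, with a median of -1.40. Over all genes tested the medians were -0.19 and -0.25, with 61.8% and 63.1% of genes under 0. For the 19 tested integrins the medians were -0.48 in both, with 15 and 12 of 19 under 0. The integrin shift depended on the scaling: after centring each array on its median 5 and 10 of 19 lay under 0 (medians 0.10 and -0.02), and after quantile normalization 11 and 10 of 19 (-0.13 and -0.09). It also depended on single arrays, with medians of -0.14 and -0.12 in bladder against sinus without bladder replicate 6 or sinus replicate 1, and of -0.10 in bladder against urethra without urethra replicate 2. The scaling also bears on the laminin count. Centring each array on its median moved the median of all genes to 0.40 and 0.22, leaving 7 and 9 of 10 laminins under 0 (Lama4, Lamb1 and Lamb2, and Lamb1, turned positive), with laminin medians of -0.36 and -0.93. After quantile normalization, with all-gene medians of 0.04 and -0.02, it was 10 of 10 in both, at -0.50 and -1.13. Lamb2 against the sinus is counted there with a difference that rounds to 0. Under all 3 scalings the laminin median thus lay under the median of all genes. The laminin count also depended on single arrays and on the fit. Without bladder replicate 8 it was 8 of 10 against the sinus and 9 of 10 against the urethra (medians -1.02 and -1.43). With the title number as a replicate block it was again 8 and 9 (-0.87 and -1.12). Against the sinus it was 9 without sinus replicate 1 (-0.66) and 9 with the mean over a gene's probe sets (-0.63). Both comparisons share the bladder arrays. In urethra against sinus 8 of 10 laminins lay above 0, against 54.4% of all genes, with a median of 0.67 against 0.05 for all genes. That count was 8 after quantile normalization and 9 after centring, and the median was 0.41 without sinus replicate 7.

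**Figure D4:**
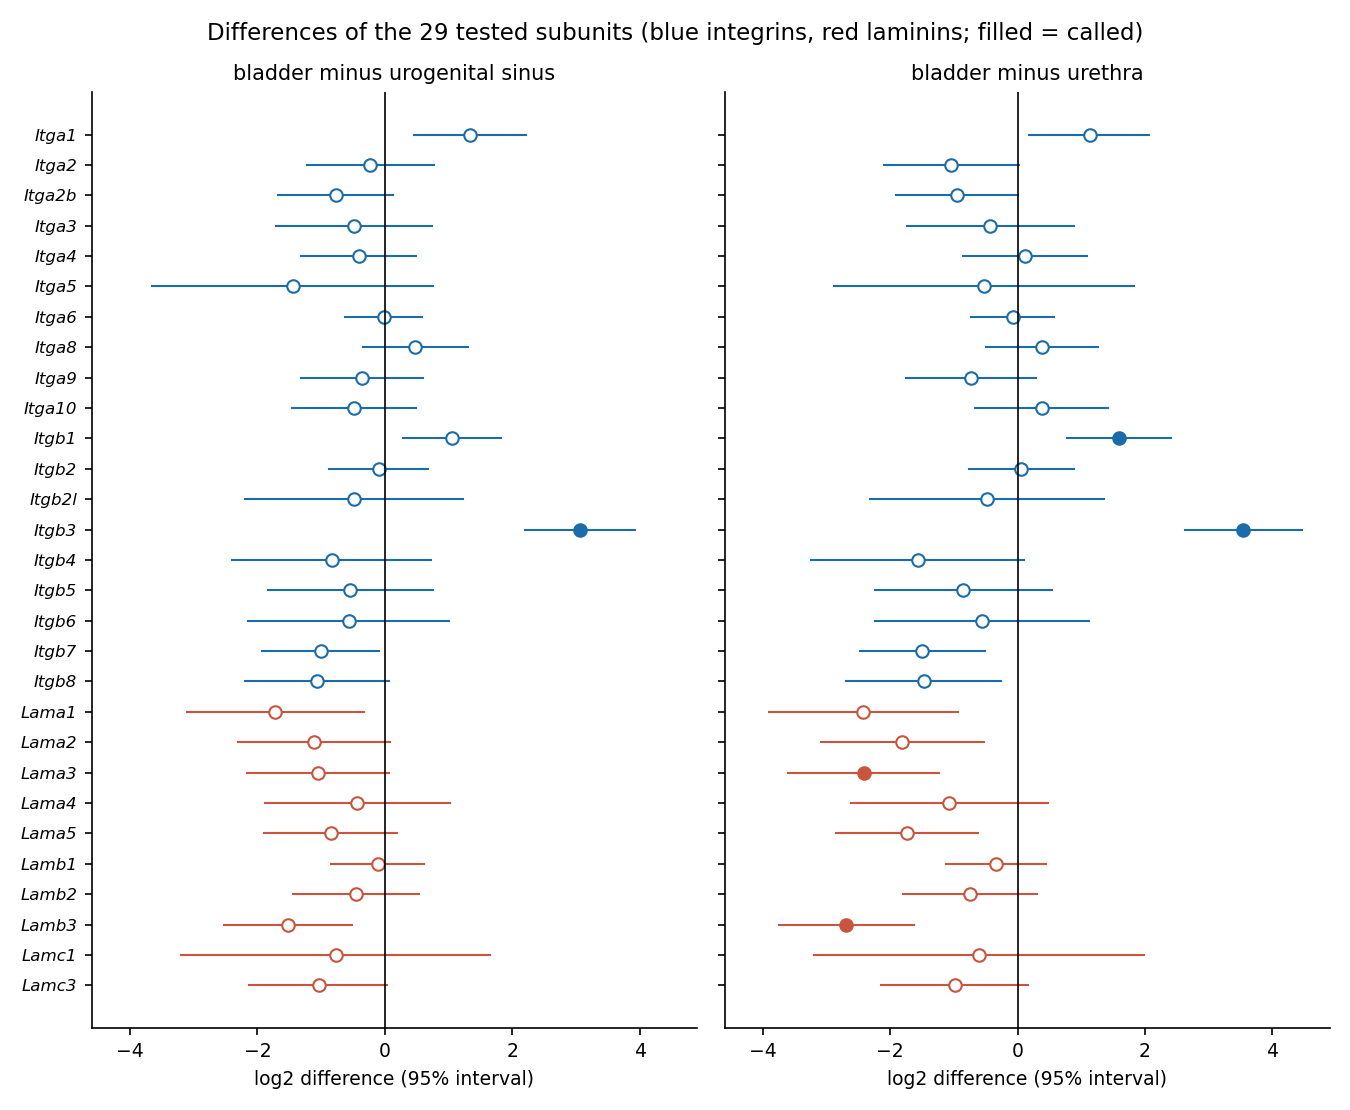
Log2 differences of the 29 tested subunits, bladder minus urogenital sinus and bladder minus urethra, with 95% intervals; integrins are blue, laminins red, and filled points were called (limma adjusted p under 0.05). Itgb3 stands far to the right in both panels, and all 10 laminins lie left of 0 in both on the deposited scale, although 3 and 1 of them turn positive when arrays are centred on their medians.

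By count, 1 of the 29 tested members was called between bladder and sinus (Itgb3, higher), against 2.54% of all genes tested (0.812% higher and 1.73% lower). Without urethra replicate 1, which shares the fit, the count was 2, with Itgb1 added. Between bladder and urethra 4 of 29 were called, 2 higher (Itgb3 and Itgb1) and 2 lower (Lamb3 and Lama3), against 4.33% of all genes (1.71% higher and 2.62% lower). The called count fell to 1 without bladder replicate 2 or 8 or urethra replicate 1 or 6, with Itgb3 the gene left each time, to 2 without bladder replicate 6, sinus replicate 6 or urethra replicate 2, and to 0 with title style as a block. The shares of all genes called in the fits with arrays left out or blocked are not given here. The bladder and sinus arrays did not overlap for 7 of 29 members, against 17.9% of all genes; Lamb3 is counted among the 7 although the arrays nearest each other were under the filter level. For bladder and urethra this was 17 of 29, against 34.5% of all genes. Itgb4 is counted among the 17 although its bladder arrays and urethra replicates 2 and 6 were all under the filter level. In bladder against sinus the 29 intervals were wide: 3 lay within 1 log2 unit of 0 (Itga6, Itgb2 and Lamb1), and for the other 26 a difference of that size was not excluded by the interval.

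Between urethra and sinus 0 of 29 members were called, against 0.0133% of all genes; 2 of 29 (Lama3 and Lamb3) had an unadjusted limma p under 0.05, against 10.4% of all genes. Besides those 2 laminins, the smallest p-values belonged to Itga10 and Lama5. Itga10, a collagen receptor of cartilage, was at 10.02, 8.27, 8.71 and 8.20 in the sinus, 7.94, 8.07 and 7.79 in the urethra and 8.17, 8.46 and 8.30 in the bladder. All urethra arrays lay under all sinus arrays, and sinus replicate 1 stood above the others. The urethra against sinus difference in Itga10 was -0.86 (SE 0.44, adjusted p = 0.544), and it turned to 0.26 with title style as a block. For Lama5 the difference was 0.88 (SE 0.47, adjusted p = 0.56). Lamb3 and Itga10 were the 2 members whose urethra and sinus arrays did not overlap, against 8.22% of all genes. With array weights Lamb3 was called (adjusted p = 0.0423), the only member called between urethra and sinus under any setting. The intervals of Itga6, Itga8, Itgb2 and Lamb1 lay within 1 log2 unit of 0.

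Among the integrin alpha chains, 0 of 10 tested were called between regions. Itga1, a collagen receptor chain of smooth muscle, had the smallest p in bladder against sinus. It was at 10.56, 10.58 and 11.91 in the bladder, at 9.61, 9.67, 9.64 and 9.80 in the sinus and at 9.34, 9.84 and 10.48 in the urethra. The bladder arrays lay above all sinus and urethra arrays, although the lead over urethra replicate 6 was small. The bladder against sinus difference was 1.33 (SE 0.39, adjusted p = 0.118, interval 0.45 to 2.22), and the other Itga1 probe set gave 0.41. Itga8, the receptor chain for nephronectin in mesenchyme and smooth muscle, was at 13.23 to 13.63 in the bladder, 11.77 to 13.47 in the sinus and 12.95 to 13.11 in the urethra. Itga4, a receptor chain for fibronectin and Vcam1, was at 10.14 to 11.95, 10.81 to 11.60 and 10.59 to 10.89. Itga9, a receptor chain for tenascin, was at 10.18 to 11.36, 10.18 to 11.33 and 10.95 to 12.09.

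The remaining alpha chains were not called either. Itga5, the fibronectin receptor chain, was at 6.12 to 8.12 in the bladder, 7.82 to 10.37 in the sinus and 5.65 to 9.97 in the urethra, the widest spread of any member there (SD 2.16). Itga3, a laminin receptor chain of epithelia, was at 8.46 to 10.19, 8.93 to 10.62 and 8.87 to 10.25. Itga2, a collagen receptor chain, was at 7.03 to 7.48, 6.49 to 8.17 and 7.86 to 8.91. Of the other beta chains, Itgb5, a vitronectin receptor chain, was at 11.99 to 12.80, 11.47 to 14.06 and 12.75 to 13.79. Itgb6, the epithelial partner of Itgav, was at 5.65 to 7.70, 6.14 to 8.90 and 6.80 to 8.20. Itgb8, another partner of Itgav, was at 6.78 to 7.19 in the bladder, 7.79 to 8.16 in the sinus and 7.68 to 9.93 in the urethra, so that the bladder did not overlap either region (bladder against urethra -1.47, SE 0.54, adjusted p = 0.144). Itgb7, a leukocyte chain, did not overlap between bladder and the other regions either, at 7.15 to 7.54, 7.68 to 9.26 and 8.40 to 9.27 (bladder against urethra -1.50, SE 0.44, adjusted p = 0.0851). Itgb2 and Itgb2l, also chains of leukocyte integrins or close relatives of them, were at 7.16 to 7.93, 6.86 to 7.94 and 7.09 to 7.56, and at 5.65 to 7.61, 5.65 to 9.04 and 6.36 to 8.0. For 15 members with more than 1 probe set past the filter, all of them had the same sign in 12 in bladder against sinus, 10 in bladder against urethra and 6 in urethra against sinus.

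Matrix ligands and inner partners of the integrins gave further differences. Of 10 integrin ligands other than laminins, 3 were called between bladder and urethra, 1 higher and 2 lower, and 0 in the other region comparisons. Over all genes tested, 1.71% were called higher and 2.62% lower in bladder than urethra. Vcam1, the adhesion molecule bound by Itga4, was at 14.41, 14.56 and 14.21 in the bladder, 13.76, 12.20, 12.44 and 12.75 in the sinus and 11.16, 11.84 and 12.66 in the urethra, with the bladder above all others. It was higher in bladder than urethra by 2.51 (SE 0.45, adjusted p = 0.0183). Tnc, the matrix protein tenascin C, which Itga9 binds, was at 9.32, 9.65 and 10.78 in the bladder, 11.79, 11.05, 11.75 and 12.17 in the sinus and 12.05, 12.60 and 13.45 in the urethra, with the bladder under all others. It was lower in bladder than urethra by -2.78 on the log2 scale (SE 0.47, adjusted p = 0.016). Npnt, nephronectin, the basement membrane ligand of Itga8, was at 10.97, 10.93 and 12.28 in the bladder against 13.61, 12.70 and 13.02 in the urethra, and the difference was -1.72 (SE 0.41, adjusted p = 0.0484).

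Among 11 basement membrane partners and laminin receptors other than integrins, Nid2, which links laminin to collagen IV, was the single gene called between regions. It was at 12.14, 11.63 and 12.21 in the bladder, with a mean of 10.70 ± 0.26 (SD, n = 4) in the sinus and 10.45 ± 0.45 (n = 3) in the urethra and no overlap between bladder and the others. It was higher in bladder than sinus by 1.29 (SE 0.28, adjusted p = 0.0465) and than urethra by 1.55 (SE 0.30, adjusted p = 0.0252), opposite in direction to the called laminin chains. Of 16 cytoplasmic integrin partners, Vcl, the focal adhesion protein vinculin, was called between bladder and sinus. Beside both lists, 2.54% of all genes were called between bladder and sinus and 4.33% between bladder and urethra. Vcl was at 15.03, 14.89 and 15.10 in the bladder, 14.19, 13.86, 13.41 and 13.86 in the sinus and 14.74, 14.46 and 14.62 in the urethra, so that the 3 regions did not overlap. The bladder against sinus difference was 1.18 (SE 0.20, adjusted p = 0.0207), and urethra against sinus gave 0.78 (SE 0.20, adjusted p = 0.23). Between bladder and urethra the smallest p in that list was that of Fermt2, the kindlin of muscle and mesenchyme, at 0.83 (SE 0.25, adjusted p = 0.0874). Of the letter-named integrins 0 of 4 tested were called between regions; the smallest p was that of Itgae, the alpha chain of mucosal T cells, in bladder against sinus, at -0.75 (SE 0.67, adjusted p = 0.574).

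The 3 newborn reference arrays entered as 1 sample because they repeat the same kind of pooled RNA. Against this reference, 3 of 29 members were called for the bladder, against 17% of all genes. They were 1 higher (5.82% of all genes) and 2 lower (11.2%). For the sinus it was 3 of 29, against 13.8%, with 1 higher (4.62%) and 2 lower (9.2%). For the urethra it was 2 of 29, against 13.2%, both lower (8.87%). These comparisons share the reference. Itgb3 was at 11.57, 10.96 and 11.25 on the reference arrays, within reach of the bladder (-0.31, SE 0.58, adjusted p = 0.747). It was lower than the reference in the sinus by -3.37 on the log2 scale (SE 0.56, adjusted p = 0.0028, 10.4-fold) and in the urethra by -3.86 (SE 0.58, adjusted p = 0.00161, 14.5-fold). The urethra fold is again approximate, because urethra replicate 2 lay under the filter level. Lamb3 was at 9.58, 9.88 and 10.06 in the reference and at least 5.46-fold lower in the bladder (fitted difference -3.27, SE 0.67, adjusted p = 0.00887), while sinus (-1.75, adjusted p = 0.116) and urethra (-0.58, adjusted p = 0.663) were not called in limma's fit.

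Itgb2, the beta chain of leukocyte integrins, was lower than the reference in all 3 regions. It was at 10.81, 10.23 and 9.54 on the reference arrays and under 8 on all region arrays. The differences were -2.77 (SE 0.52, adjusted p = 0.00556) for the bladder, -2.68 (SE 0.51, adjusted p = 0.00612) for the sinus and -2.84 (SE 0.52, adjusted p = 0.0056) for the urethra. Of the 8 leukocyte and macrophage genes, 3 were lower than the reference in the bladder, 2 in the sinus and 1 in the urethra, and none was higher; their mean was 10.98 to 11.36 in the reference and 8.48 to 9.46 in the regions. Itga8 was at 11.65, 11.20 and 11.03 in the reference and higher in the bladder by 2.10 (SE 0.56, adjusted p = 0.0293, 4.28-fold), and its other probe set gave 5.48. In the sinus (1.62, SE 0.54, adjusted p = 0.0797) and the urethra (1.71, SE 0.56, adjusted p = 0.0753) the Itga8 differences were not called, and Itga8 was not called between any 2 regions either. The bladder call was lost when any 1 of the 3 bladder arrays was left out (1.98 to 2.18, adjusted p 0.055 to 0.0714). Itga4 was at 9.65, 8.50 and 9.15 in the reference and higher in the sinus by 2.17 (SE 0.60, adjusted p = 0.0397), with 1.75 (SE 0.62, adjusted p = 0.0827) in the bladder and 1.63 (SE 0.62, adjusted p = 0.124) in the urethra, neither called. Its other probe sets past the filter gave 1.92 and 0.11, and the sinus call was lost in 9 of 25 settings, 8 of them omissions of a single array (bladder replicate 2, sinus replicate 2, 6 or 7, any urethra array, or reference replicate 2, at 1.87 to 2.18, adjusted p 0.0536 to 0.0796). Without sinus replicate 1 the counts rose to 7 for the bladder, 6 for the sinus and 4 for the urethra, and without reference replicate 1 the bladder count was 5. The shares of all genes called in these fits are not given, so the rises are not read as a result about the members.

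Between Theiler stages 22 and 21, fitted with region as a covariate, 0 of 29 members were called, against 0% of all genes; with an unadjusted limma p under 0.05 it was 4 of 29, against 25.5% of all genes. Itgb5 had the smallest p. At stage 21 it was at 12.80 on bladder replicate 2, 14.06 and 13.51 on sinus replicates 1 and 2, and 13.79 and 12.81 on urethra replicates 1 and 2. At stage 22 it was at 12.01 and 11.99 on bladder replicates 6 and 8, 12.19 and 11.47 on sinus replicates 6 and 7, and 12.75 on urethra replicate 6. Within each region every stage 21 array was above every stage 22 array, in the urethra only narrowly (12.81 against 12.75). The difference was -1.22 (SE 0.32, adjusted p = 0.0856), and it was called with array weights (-1.0, adjusted p = 0.0362) and with robust variance estimates (-1.22, adjusted p = 0.0497). The probes of the Itgb5 probe set can also bind other transcripts, as its suffix marks. Other Itgb5 probe sets did not all keep the order in the urethra. Replicate 2 lay under replicate 6 by some (11.22 against 11.35, and 11.99 against 12.24) and above it by another (12.35 against 12.31). Next by p were Lamb1 (-0.57, SE 0.22, adjusted p = 0.149) and Itga9 (-0.74, SE 0.28, adjusted p = 0.151). The stages also coincide with replicate numbers, so stage and replicate number cannot be told apart.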

How the data were processed

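RNA was prepared with RNeasy columns, amplified in 2 rounds and labelled with biotin, per the labels' protocols. Linear signal intensity was deposited by the authors for 45101 probe sets. GCOS is named in the submitters' processing notes; its version is not given in the sources used here. Every array had the same 2% trimmed mean, so no scaling was added. The number of arrays limits the precision.

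Intensity was floored at the 20th percentile (50.23) and log2 transformed. The 64 control probe sets and those with several symbols (932) or none (9160) were left out. Probe sets above 167.76, the 40th percentile, on at least 3 arrays were kept, and the brightest on average represented its gene. Regions shared 1 limma 3.58.1 fit (R 4.3.3; lmFit, eBayes with intensity trend; 7 residual and 2.83 prior degrees of freedom), without a replicate block. The mean of the reference arrays entered as 1 sample, assumed to vary like a region sample. Where a group has all arrays under 167.76, a fold is a bound against that level, written "at least".

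Per-array values are given for members called between regions and for the 4 smallest p of each region comparison, then for called genes of related lists or their smallest p; per-array values of Lama1, Itgb4 and Itga2b were added after they were seen. The other members are given by range. Members, 5 related lists and 10 marker lists were chosen with earlier results of these data known. Settings tried included other scalings, floors, filters, weights and blocks, and each array left out.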

Additional observations from a re-analysis of the deposited data

Results flagged for a closer look

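In the 4 sinus arrays, the level of 2 of 29 members stood apart from the others by Dixon's test at the 95% level; chance alone marks about 1 in 20 groups. Itga9 was at 10.18 on urogenital sinus replicate 7 and at 11.14 to 11.33 on the other sinus arrays, a gap of 0.837 of the range. Itgb8 was at 7.79 on urogenital sinus replicate 1 and at 8.11 to 8.16 on the others, a gap of 0.869 of the range.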

How the results depend on the processing

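Of 572 values of 23 named results under other settings, 514 kept their direction and their side of the threshold, 50 kept the direction and lost the call, 7 gained a call and 1 reversed: Itga10 in urethra against sinus, at 0.26 with title style as a block. The number of members called between bladder and sinus (1) was 7 with array weights and 2 without both arrays numbered 1 (added after seeing the data), and 1 to 2 with an array left out. Between urethra and sinus (0) it was 1 with array weights, and 0 with any array left out. Between bladder and urethra (4) it was 2 with quantile normalization, without the filter, and with only those regions' arrays, 9 with array weights, 0 with title style as a block, and 1 to 6 with an array left out. Against the reference, with array weights, title style as a block and reference arrays as 3 samples in turn, the bladder count (3) was 12, 11 and 12, the sinus count (3) 11, 5 and 7, and the urethra count (2) 6, 6 and 6; with an array left out they were 2 to 7, 2 to 6 and 2 to 4. Between stages (0) it was 1 with array weights and with robust estimates, and 0 with any array left out. The share of all genes called under each of these settings is not given here. A change in a count is therefore not read as a result about these members. The causes were not tested.

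With the title number as a replicate block, 1 member (Itgb3) was called in bladder against sinus, 0 in urethra against sinus and 1 (Itgb3) in bladder against urethra, and the laminin median in urethra against sinus was 0.41. The deviations of arrays with the same number correlated at -0.17 to 0.36, over 0.1 in 5 of 7. Those of the 26 other pairs from different regions correlated at -0.51 to 0.41. So few pairs, with numbers tied to stage, cannot settle whether a number marks an embryo. The numbers were not taken to pair the samples because the labels do not say that they mark animals. Low signal limits Itgb4, Itgb8 and Lamb3 in the bladder, where all values lie under the filter level.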
